A study of Homo sapiens with 29 samples.

Results

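In HepG2 cells 2911 of 23665 INO80 peaks (12.3%) were narrower than 3000 bp and overlapped a peak of each of the 4 partner proteins MCRS1, RUVBL1, RUVBL2 and YY1. These sites were chosen by that overlap, of at least 1 bp, and by the width of the INO80 peak, so the presence of the partners and the width are given as a description. They made up 12.8% of the 22801 INO80 peaks under 3000 bp, and are called 4-partner sites here. A further 503 INO80 peaks of 3000 bp or more also met all 4 partners and were left out by the width limit. The question is what the sites with the whole set of mapped proteins have in common beyond that set.

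HepG2 and Huh7 are established human liver cancer cell lines, and chromatin immunoprecipitation followed by sequencing (ChIP-seq) mapped the proteins in untreated cells of both, after fixing in 0.3% formaldehyde for 30 min. INO80 in HepG2 came from 3 libraries, made with 2 lots of 1 antibody, and INO80 in Huh7 from 2 libraries made with the second of those lots. Both lines have 2 libraries each for MCRS1 and for RUVBL2, while RUVBL1 has 2 in HepG2 and none in Huh7, and the YY1 list of Huh7 rests on 2. The RUVBL1 antibody labels name the vendor bethyl beside a catalogue number of the form that abcam uses, so which antibody made the list that limits these sites is uncertain. YY1 peaks in HepG2 derive from ENCODE reads that the submitters passed through the same steps, so they stem from another culture and another laboratory. Each factor has 1 peak list per line, which gives positions on hg19 and no height or depth. No value below therefore has a replicate error. Intervals are 95% Wilson intervals for shares and 95% Newcombe intervals for differences of shares. They cover counting error only, and neighbouring peaks are not independent. The lists hold 5518 RUVBL1, 12936 RUVBL2, 23425 MCRS1 and 39293 YY1 peaks in HepG2, so RUVBL1 limits the number of 4-partner sites most.

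INO80 is the motor of a chromatin remodelling complex that slides nucleosomes along DNA. MCRS1 is a subunit of the complex and also belongs to a histone acetyltransferase complex. RUVBL1 and RUVBL2 are related ATPases that assemble into a mixed ring, and they serve other remodelling and assembly complexes as well. YY1 is a zinc finger factor that binds its own DNA motif, often just downstream of a transcription start, and is a subunit of the human INO80 complex.

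The YY1 motif was in 11.4% of the 4-partner sites and in 8.16% of windows about coding starts, and 10 sites are shown with it. The rule asks for a YY1 peak at every member and coding starts were not chosen for one, so this excess is a description. Members away from coding starts had the motif at 5.64%. The 10 sites shown are members at coding starts with the letters AANATGGC, on either strand, within 50 bp of the INO80 centre. Among such members they have the closest centres of the 5 peaks. Each line gives 30 bases of the plus strand of hg19, 5′ to 3′, and capitals mark the motif, which reads in reverse complement where it begins with G.
TRIP4 (chr15:64680049-64680078): tccggctggggAAGATGGCggtggctgggg
MRPL35 (chr2:86426600-86426629): aggcgaaggtgAAGATGGCtgcctctgcct
ATP5MC2 (chr12:54069625-54069654): gcgagacatccAAGATGGCgccaggcccgc
ZNF714 (chr19:21265301-21265330): ccttcagccatAAGATGGCggctgcgctga
ZNF613 (chr19:52430339-52430368): acctaagtgttAAGATGGCcgcgcccattg
ZNF675 (chr19:23869659-23869688): gtcagcgcgccGCCATCTTatggctgcagg
PEX19 (chr1:160254899-160254928): cctcagcggcgGCCATCTTgctacctccga
HIKESHI (chr11:86013477-86013506): gagctgccgtcGCCATGTTtggctgcttgg
COG2 (chr1:230778213-230778242): gcgcgggcgctGCCATGTTggcggaagcgg
METTL3 (chr14:21979672-21979701): acgcgcatgcgGCCATGTTgaatattcgga
At TRIP4, MRPL35, PEX19 and HIKESHI these bases span the end of the 5′ UTR and the first coding bases, so that the motif overlaps the start of translation or lies beside it. The COG2 bases lie in the 5′ UTR, those of ATP5MC2, ZNF714 and ZNF675 in an intron, and those of METTL3 and ZNF613 outside any coding transcript, 205 and 334 bp upstream of the start. All but ZNF613 overlapped INO80 and YY1 peaks in Huh7, and ZNF613 had no Huh7 peak.

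Longer stretches show other kinds of member, each free of exons of basic protein-coding transcripts. Exons of other transcripts were not checked. The stretch between the opposed genes BYSL and MED20, whose middle lies 107 bp upstream of the MED20 start, stands for sites with coding starts on both strands. Capitals mark the SP/KLF letters GGGCGG in reverse complement.
BYSL and MED20 (chr6:41888884-41889083): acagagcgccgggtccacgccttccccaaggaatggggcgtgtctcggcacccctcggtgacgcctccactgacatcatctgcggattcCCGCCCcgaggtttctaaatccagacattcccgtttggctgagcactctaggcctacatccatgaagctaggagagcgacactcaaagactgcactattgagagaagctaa
The stretch upstream of ORM1, which encodes the plasma protein orosomucoid, lies about the YY1 centre 235 bp before the start and stands for liver genes. It holds none of the 14 motifs searched.
ORM1 (chr9:117085043-117085242): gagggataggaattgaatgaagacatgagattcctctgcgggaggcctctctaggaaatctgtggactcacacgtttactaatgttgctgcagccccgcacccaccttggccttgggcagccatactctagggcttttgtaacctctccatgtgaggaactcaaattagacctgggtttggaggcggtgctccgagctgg
The stretch at the RUVBL1 centre in an intron of VAC14, which encodes a scaffold of a lipid kinase complex, stands for members far from any start. Capitals mark the NF-Y letters CCAAT.
Intron of VAC14 (chr16:70759064-70759263): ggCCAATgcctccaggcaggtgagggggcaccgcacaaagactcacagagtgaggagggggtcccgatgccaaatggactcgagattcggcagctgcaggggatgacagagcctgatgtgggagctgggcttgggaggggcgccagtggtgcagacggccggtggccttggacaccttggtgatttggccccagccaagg

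The 5 peaks of a 4-partner site were of unequal size. INO80 peaks at these sites ran from 147 to 2998 bp, with a median of 1340 bp and quartiles of 916 and 1870 bp. MCRS1 peaks were a little wider (median 1478 bp) and YY1 peaks a little narrower (1112 bp), while RUVBL2 peaks measured 618 bp and RUVBL1 peaks 311 bp. MCRS1 covered a median of 97.4% of the INO80 peak, YY1 79.8%, RUVBL2 50.2% and RUVBL1 26.3%. MCRS1 had the widest of the 5 peaks at 1517 sites, INO80 at 880, YY1 at 435, RUVBL2 at 68 and RUVBL1 at 11. RUVBL1 was thus a short stretch within a wide INO80 and MCRS1 peak at most of them.

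Centres of the partner peaks lay close to the INO80 centre. The overlap rule and the width limit set these distances in part, so they are a description. The median distance was 123 bp for MCRS1, 149 bp for YY1, 167 bp for RUVBL2 and 227 bp for RUVBL1. The outermost 2 of the 5 centres were a median of 468 bp apart, with quartiles of 293 and 696 bp. This distance, called the span here, was under 100 bp at 56 sites and over 1000 bp at 309. RUVBL1 was the centre farthest from the median of the 5 centres at 1024 sites (35.2%). This was more often than MCRS1 (17.9%), RUVBL2 (17.9%), YY1 (16.6%) and INO80 (12.4%). RUVBL1 peaks also had the smallest median width, and the part of peak width in this order was not tested. At 2445 sites (84.0%) at least 1 base was covered by all 5 peaks, over a median of 230 bp. The other 466 sites met the rule although no base was shared by all 5. Members rarely shared a partner peak: only 4 did so for RUVBL1, 8 for RUVBL2, 14 for YY1 and 40 for MCRS1. The RUVBL1 peaks at these sites were 52.7% of all RUVBL1 peaks in HepG2, against 22.5% of RUVBL2, 12.3% of MCRS1 and 7.39% of YY1 peaks.

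The tightest member lay at TRIP4, which encodes a coactivator of nuclear receptors, where the 5 centres fell within 41 bp, between 6 and 47 bp downstream of the start (chromosome 15, 64679698 to 64680438). At INTS2, a subunit gene of the Integrator complex, the centres lay within 46 bp of each other, 192 to 238 bp downstream of the start. The shared promoter peak named after GFI1B and TSC1 had a span of 50 bp. GTPBP8, THAP1, GDAP1, NR2F2, ZNF562, FAM98B and RTTN followed, with spans of 60 to 73 bp. All 10 overlapped INO80 and YY1 peaks in Huh7. At the other end, the widest RUVBL1 peak of any member covered 11577 bp near DHRS2, overlapping an INO80 peak of 2148 bp, and a RUVBL1 peak of 11029 bp reached a member in RCC1. Neither site had a Huh7 peak. A RUVBL1 peak of 7674 bp overlapped a member in EEF1A1, the gene of a translation elongation factor, 5573 bp downstream of the start by the INO80 centre. A single RUVBL1 peak of 6421 bp was shared by the member at the DEPP1 start and the one that overlaps DEPP1 and RASSF4. The other widest RUVBL1 peaks belonged to members in LRRC75A, near RPL13, and at CD68, AARS1 with DDX19B, and a group of histone genes beside BOLA1.

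The 503 peaks beyond the width limit differed from the members in several shares. A coding start lay within 1 kb of 84.3% of them against 68.9% of members, all 4 factors were found in Huh7 at 50.5% against 27.9%, and the YY1 letters occurred at 5.57% against 11.4%. Just inside the limit lay the members at CNN2 (2998 bp), EMC9 (2996 bp), near C2orf42 (2990 bp), at KAZALD1 (2989 bp) and at NPAS2 (2987 bp). Just outside it lay SQSTM1 (3002 bp), FBXO11 (3003 bp), PHAF1 (3006 bp), a site near GRAP with the small nucleolar RNA genes SNORD3B-1 and SNORD3B-2 (3010 bp) and a site near OR6S1 (3013 bp). Of the 5 inside, 4 overlapped INO80 in Huh7, and of the 5 outside 3 did.

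Most 4-partner sites lay at promoters of coding genes. Of the 2911 sites 2006 (68.9%, 67.2 to 70.6) had a protein-coding start within 1 kb, against 51.8% of all INO80 peaks under 3000 bp. Against all other INO80 peaks under 3000 bp the difference was 19.6 points (17.7 to 21.4) over all widths. Within classes of INO80 width that excess held only in the narrowest class. The differences were 19.3 points under 500 bp, -2.03 from 500 bp, -3.93 from 1000 bp and -5.90 from 1500 bp. Of these, only the interval from 500 bp spans 0 (-6.12 to 1.97). The rest were split into 461 with the centre in an intron, 327 between genes and 117 in an exon. Of these 905 sites 310 had another annotated start within 1 kb. A coding start was more than 10 kb away at 617 sites (21.2%). The promoter share was nonetheless lower than at the nearest comparison group, the 5421 INO80 peaks under 3000 bp with MCRS1, RUVBL2 and YY1 and no RUVBL1, called RUVBL1-lacking sites here. There it was 76.4%, and the difference, 4-partner minus RUVBL1-lacking, was -7.48 percentage points (-9.51 to -5.46). Sites with MCRS1 and YY1 and neither RUVBL protein had 53.6%, and INO80 peaks with no partner 32.8%. Within the 4 classes of width the difference from the former was 6.52 (-0.277 to 13.4), -0.722, -1.40 and -4.44 points (-8.61 to 0.0850), with intervals that all span 0. From the latter it was 28.4 (21.7 to 35.1), 6.08 (0.676 to 11.4), 0.477 (-4.82 to 6) and -3.67 points (-7.88 to 0.879).

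**Figure D1:**
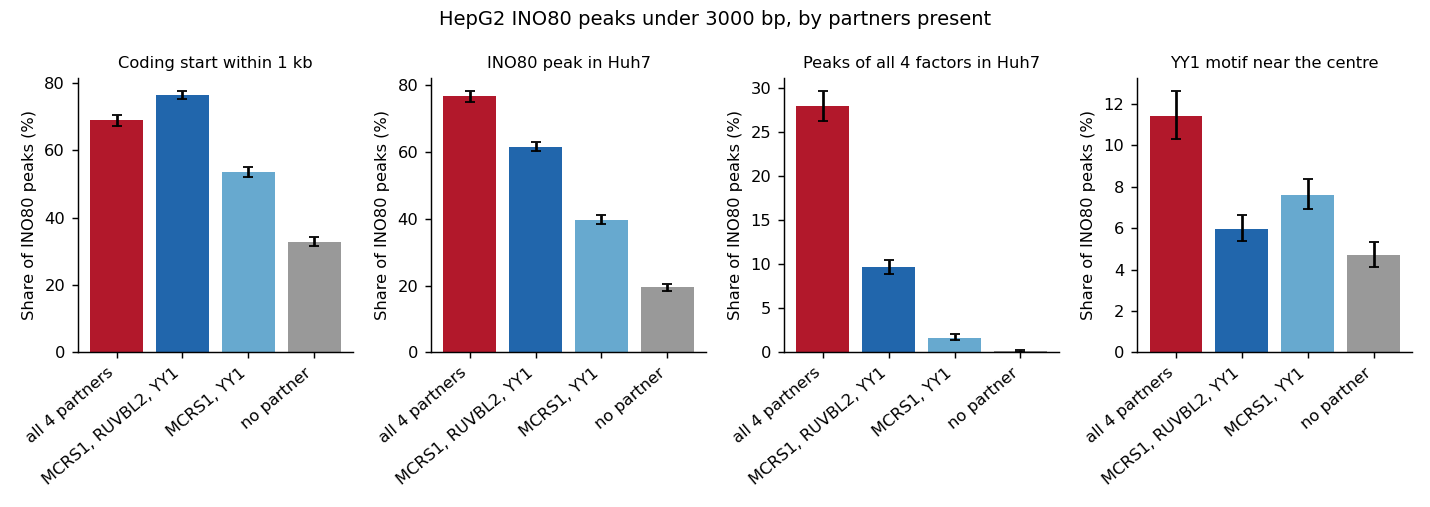
Bars give the share of HepG2 INO80 peaks under 3000 bp (%) with a coding start within 1 kb, an INO80 peak in Huh7, peaks of all 4 mapped factors in Huh7, and the YY1 motif about the centre, for sites with all 4 partners, with MCRS1, RUVBL2 and YY1, with MCRS1 and YY1, and with no partner; whiskers are 95% Wilson intervals. The 4-partner sites had the highest share in the last 3 panels (76.6%, 27.9% and 11.4%) and the second highest at coding starts (68.9% against 76.4%).

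Coding starts on both strands were a feature of the 4-partner sites. Within 1 kb of the peak, 400 sites (13.7%) had starts of coding genes on opposite strands, against 8.47% of RUVBL1-lacking sites, a difference of 5.27 points (3.85 to 6.75). Among sites at coding starts alone the shares were 19.9% and 11.1%, a difference of 8.86 points (6.90 to 10.9). A wide peak reaches more starts, and the INO80 peaks of the 4-partner sites were wider, with a median of 1340 against 1023 bp. Within classes of INO80 width the difference was 3.25 points (-0.156 to 7.85) under 500 bp, 4.12 from 500 bp, 3.77 from 1000 bp and 5.43 from 1500 bp. In all, 1558 members lay at 1 coding gene, 423 at 2 and 25 at 3 or more, and together they reached 2439 of 19811 coding genes.

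RUVBL1 was placed differently from the other 4 factors about the start. Positions were read at the 1606 members whose nearby coding starts all lie on 1 strand. The start used was the one nearest the INO80 centre, a choice that favours short distances for INO80. Centres of INO80 had a median of 54.5 bp downstream of the start, MCRS1 49.5 bp and RUVBL2 74.0 bp downstream, YY1 1.00 bp upstream and RUVBL1 56.0 bp upstream. The medians hide how far RUVBL1 was spread. Its centre was more than 200 bp upstream at 641 sites (39.9%), within 200 bp at 568 (35.4%) and more than 200 bp downstream at 397 (24.7%). INO80 was more than 200 bp upstream at 15.8%, MCRS1 at 18.6%, YY1 at 19.9% and RUVBL2 at 321 of the 1606 sites. YY1 had the largest share within 200 bp (60.1%). In bins of 100 bp, RUVBL1 centres were most frequent from 100 to 200 bp downstream (11.8%), fell to 6.91% from 200 to 100 bp upstream, and were frequent again from 400 to 300 bp upstream (8.97%). The rule lets a partner sit anywhere along the INO80 peak, so these placements describe the sites chosen and were not tested.

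**Figure D2:**
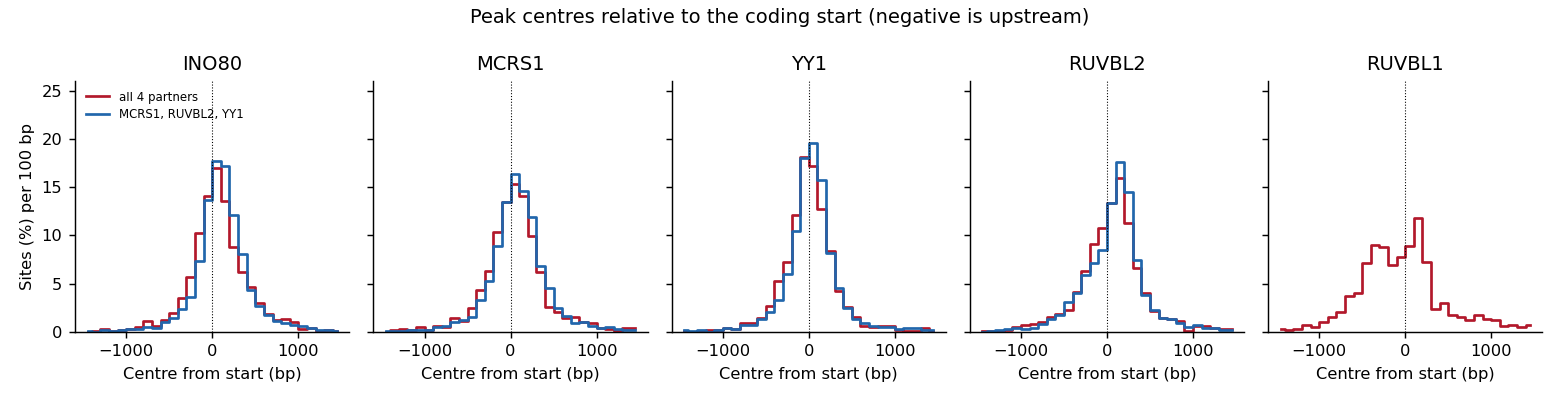
Each panel gives the share of sites (%) per 100 bp whose peak centre lies at a given distance from the coding start (bp, negative is upstream) for 1 factor; red lines are 4-partner sites and blue lines sites with MCRS1, RUVBL2 and YY1 but no RUVBL1. RUVBL1 has a high point downstream of the start (11.8%) and another upstream (8.97%), while each other factor has a single high point near the start.

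The DNA under the 4-partner sites was less rich in GC than that of the RUVBL1-lacking sites. In a window of about 0.3 kb on the INO80 centre the median GC content was 61.1% (quartiles 54.5% and 67.1%), against 70.4% at RUVBL1-lacking sites and 64.1% about all coding starts. The ratio of observed to expected CpG was 0.720 against 0.818. At coding starts alone the GC medians were 63.5% and 71.8%, and away from them 55.5% and 62.8%. The difference thus had 1 direction in both places.

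Motifs were searched as exact letters in that window on both strands, and a match is a description of letters, not a bound site. The YY1 letters AANATGGC occurred at 332 members (11.4%, 10.3 to 12.6). They occurred at 5.96% of RUVBL1-lacking sites, 7.20% of all INO80 peaks under 3000 bp and 8.16% of windows about 55751 coding starts. Of these, only the RUVBL1-lacking sites were also chosen for a YY1 peak. The difference from RUVBL1-lacking sites was 5.45 points (4.16 to 6.79). At coding starts it was 14% against 6.62%. Away from them it was 5.64% against 3.83%, a difference of 1.81 points (0.0230 to 3.74), while sites with MCRS1 and YY1 and neither RUVBL protein had more, at 8.51%. The letters were not gathered at the INO80 centre: 32.2% of the 332 had them within 50 bp of it, where 34.4% of the window's positions lie. At members with the letters the 5 centres lay closer together, with a median span of 366 bp against 475 bp at members without them. The RUVBL1 centre lay a median of 160 bp from the INO80 centre with the letters and 239 bp without. These distances were not read within classes of INO80 width or by place, and the part of either was not tested.

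Motifs of general promoter factors went in both directions. The SP/KLF letters GGGCGG, a GC-rich box, were less frequent at 4-partner sites (47.7%) than at RUVBL1-lacking sites (66.5%), a difference of -18.8 points (-21.0 to -16.6). Their share about coding starts was 56.8% and at all INO80 peaks under 3000 bp 47.5%. The NF-Y letters CCAAT were more frequent, with 26.3% against 17.7% (8.57, 6.69 to 10.5), though windows about coding starts held them at 31.6%. The ETS letters CCGGAAG had 12.7% against 11.5%, and the interval of the difference spans 0 (1.25, -0.199 to 2.76). At coding starts they had 15.8% against 12.8% (2.98, 1.12 to 4.91), beside 13% of all windows about coding starts. The letters TATAAA had 4.67% against 2.34% (2.33, 1.5 to 3.24), and 7.43% about coding starts. For NF-Y and TATAAA the 4-partner sites therefore lay between the RUVBL1-lacking sites and coding starts at large. Median GC content in the same window was 61.1% at 4-partner and 70.4% at RUVBL1-lacking sites. These letters were not read within classes of GC content, and its part in their shares was not tested.

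Motifs of enhancer and liver factors were more frequent at members away from starts than at members at starts. AP-1 letters (TGANTCA) were in 10.3% of the 905 sites away from coding starts and in 4.04% of those at them. The C/EBP letters TTGCNNAA had 10.8% and 6.33%. Forkhead letters (TGTTTAC), read by FOXA factors that open liver chromatin, had 5.97% and 2.04%. For the HNF4 letters CAAAGTCCA the shares were 1.88% and 0.349%. The letters TATAAA (6.52% and 3.84%) and the CTCF letters CCACNAGG (7.07% and 4.84%) were also more frequent away from starts. YY1 (5.64% and 14%), ETS (5.97% and 15.8%), SP/KLF (24.4% and 58.3%) and NRF1 letters (GCGCATGC, 1.22% and 3.54%) ran the other way. NF-Y letters were in 26.2% and 26.3%, a difference, starts minus away, of 0.133 points (-3.37 to 3.52). Their shares at all INO80 peaks under 3000 bp were 5.24% for AP-1, 7.29% for C/EBP, 2.81% for forkhead and 0.566% for HNF4 letters, and about coding starts 5.13%, 7.16%, 2.28% and 0.273%. Away from starts, RUVBL1-lacking sites held fewer AP-1 (6.56%), C/EBP (7.27%) and forkhead letters (3.75%), with differences of 3.71 (1.37 to 6.19), 3.56 (1.14 to 6.11) and 2.22 points (0.408 to 4.18). For HNF4 letters (1.41%) the interval of the difference spans 0 (0.472, -0.597 to 1.70). At starts, RUVBL1-lacking sites also held fewer AP-1 (2.44%) and C/EBP letters (3.77%), with differences of 1.60 (0.666 to 2.64) and 2.56 points (1.40 to 3.83). Forkhead letters were at 1.42% of them there, and the interval spans 0 (0.619, -0.0531 to 1.40). AP-1, C/EBP and forkhead letters were thus more frequent away from starts at RUVBL1-lacking sites too. Against all other INO80 peaks away from starts the difference was 2.87 points for AP-1 (0.985 to 5.08), 0.975 for HNF4 (0.244 to 2.10) and 1.35 for C/EBP letters, whose interval spans 0 (-0.599 to 3.61). Forkhead letters were in 4.01% of those other peaks (interval of the difference 0.535 to 3.73 points). Sites with MCRS1 and YY1 and neither RUVBL protein had C/EBP letters at 10.8%, AP-1 letters at 8.12%, forkhead letters at 5.80% and HNF4 letters at 1.55%. All 4 intervals of the difference from 4-partner sites span 0, from -2.29 to 2.50, -0.00937 to 4.54, -1.54 to 2.11 and -0.584 to 1.52 points. Median GC content was lower at members away from starts than at members at starts. It also differed between 4-partner and RUVBL1-lacking sites away from starts (55.5% and 62.8%). The part of GC content in any of these differences was not tested.

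**Figure D3:**
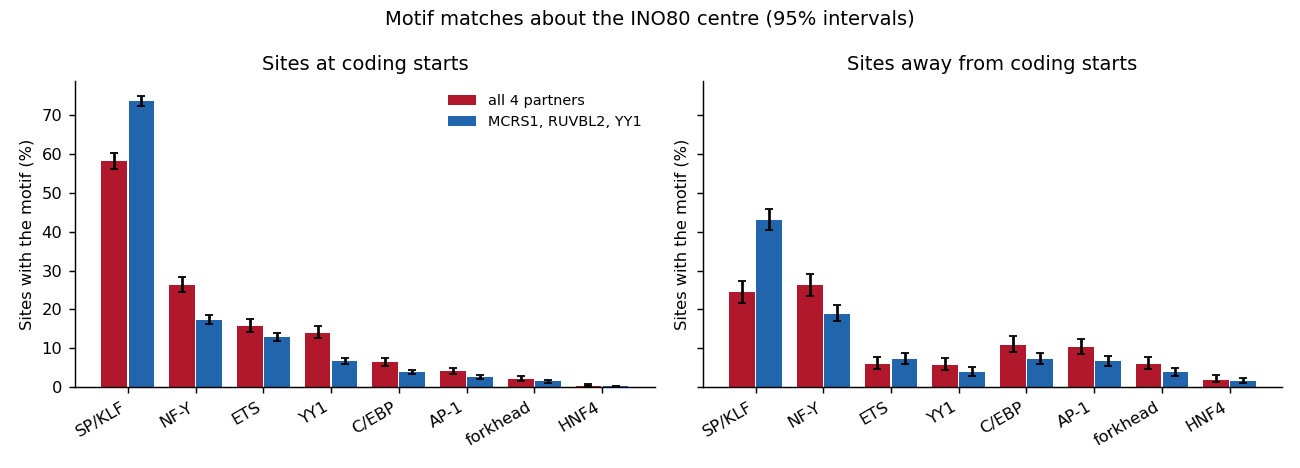
Bars give the share of sites (%) whose window about the INO80 centre holds the letters of each motif, at coding starts (left) and away from them (right), for 4-partner sites (red) and sites with MCRS1, RUVBL2 and YY1 but no RUVBL1 (blue); whiskers are 95% Wilson intervals. SP/KLF letters are in 58.3% of 4-partner sites at starts and 24.4% away, while AP-1 letters are in 4.04% and 10.3%.

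Genes of cytosolic ribosomal proteins had the largest share of 4-partner sites among 18 lists. A gene counts where a site lies within 1 kb of one of its coding starts, which held for 12.3% of all coding genes, while 63.7% had an INO80 peak of any kind. Of 88 genes of cytosolic ribosomal proteins and their paralogs 48 (54.5%, 44.2 to 64.5) had a 4-partner site and 12 (13.6%) a RUVBL1-lacking site. Over all coding genes the order was the reverse, with 23% at a RUVBL1-lacking site. INO80 peaks of any kind lay at 85 of the 88, so 56.5% of those bound carried all 4 partners, against 19.3% of all bound coding genes. RPL5, which joins the ribosomal 5S particle, had centres within 200 bp of each other, 171 to 371 bp downstream of the start. RPL29 had a span of 221 bp and RPL26L1, a paralog of RPL26, one of 98 bp. RPL36, with HSD11B1L and MICOS13, had one of 264 bp. All 4 overlapped INO80, MCRS1 and YY1 in Huh7, and RPL5 overlapped RUVBL2 there as well. Many ribosomal protein genes have processed copies elsewhere, and the sources used here do not say how reads of near-identical copies were placed.

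Other housekeeping lists also lay above 12.3%. Of 82 genes of mitochondrial ribosomal proteins 36 (43.9%, 33.7 to 54.7) had a 4-partner site, among them MRPS31 with a span of 89 bp and MRPS7, which shares its promoter with GGA3, with 120 bp. The proteasome, which degrades tagged proteins, had 19 of 48 genes (39.6%, 27 to 53.7). There PSMC2 had a span of 83 bp, and the RUVBL1 peak at PSMA6 was 1597 bp wide. The spliceosome had 27 of 72 (37.5%, 27.2 to 49.0), such as SF3A3 and U2AF2, which take part in the choice of the 3′ splice region. Transfer RNA synthetases had 14 of 40 (35.0%, 22.1 to 50.5), with LARS2, which charges leucine in mitochondria, at a span of 98 bp. The respiratory chain and ATP synthase had 24 of 81 (29.6%, 20.8 to 40.3), of which ATP5PF, beside GABPA, had a span of 80 bp and UQCR11 one of 91 bp. Shares of RUVBL1-lacking sites in these lists ran from 26.8% for mitochondrial ribosomal proteins to 40.3% for the spliceosome. INO80 peaks of any kind lay at 91.7% to 100% of the genes in each list, against 63.7% of all coding genes. Among genes so bound, 4-partner sites lay at 45.0% for mitochondrial ribosomal proteins, 43.2% for the proteasome and 37.5% for the spliceosome. For synthetases it was 35.0% and for the respiratory chain 30.8%, against 19.3% of all bound coding genes.

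Genes that act on DNA were reached as well. DNA repair had 20 of 62 genes (32.3%, 22.0 to 44.6), with RAD1, of the checkpoint clamp, at a span of 133 bp and ERCC5, an excision nuclease, at 146 bp. DNA replication had 12 of 49 (24.5%, 14.6 to 38.1), among them GINS1 and MCM5 of the replicative helicase and FEN1, a flap nuclease. Chaperones had 18 of 79 (22.8%, 14.9 to 33.2), including the chaperonin subunits CCT3 and CCT7. RUVBL1-lacking sites lay at more of these genes, with 33.9% for DNA repair, 32.7% for DNA replication and 27.8% for chaperones. Of the genes with any INO80 peak, 4-partner sites lay at 35.1%, 26.7% and 25.7% in the same order. Over all bound coding genes the share was 19.3%. Replication-dependent histones had 23 of 65 (35.4%, 24.9 to 47.5) and 8 (12.3%) with a RUVBL1-lacking site. These genes stand in dense clusters, so that 1 site can reach several, as at H2AC20, H2AC21 and H2BC21, where 1 INO80 peak of 2918 bp lay under a RUVBL1 peak of 2662 bp.

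The genes of the complex were among its own 4-partner sites. Of 16 subunit genes 8 had one (interval of the share 28.0% to 72.0%): INO80, INO80B, INO80D, INO80E, ACTB, RUVBL1, TFPT and UCHL5. INO80E, beside HIRIP3, had the smallest span (105 bp), with INO80 centred 77 bp and YY1 162 bp downstream of the start. At INO80 itself the span was 550 bp, and RUVBL1 was centred 596 bp downstream of the start. RUVBL1 had a member at each of 2 starts, of 257 bp and of 1435 bp beside EEFSEC. All 9 of these sites overlapped INO80 and YY1 in Huh7. With 16 genes the interval reaches down to 28.0%, still above the 12.3% of all coding genes. INO80 peaks of any kind lay at 15 of the 16 genes. Of those bound 53.3% had a 4-partner site, against 19.3% of all bound coding genes.

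**Figure D4:**
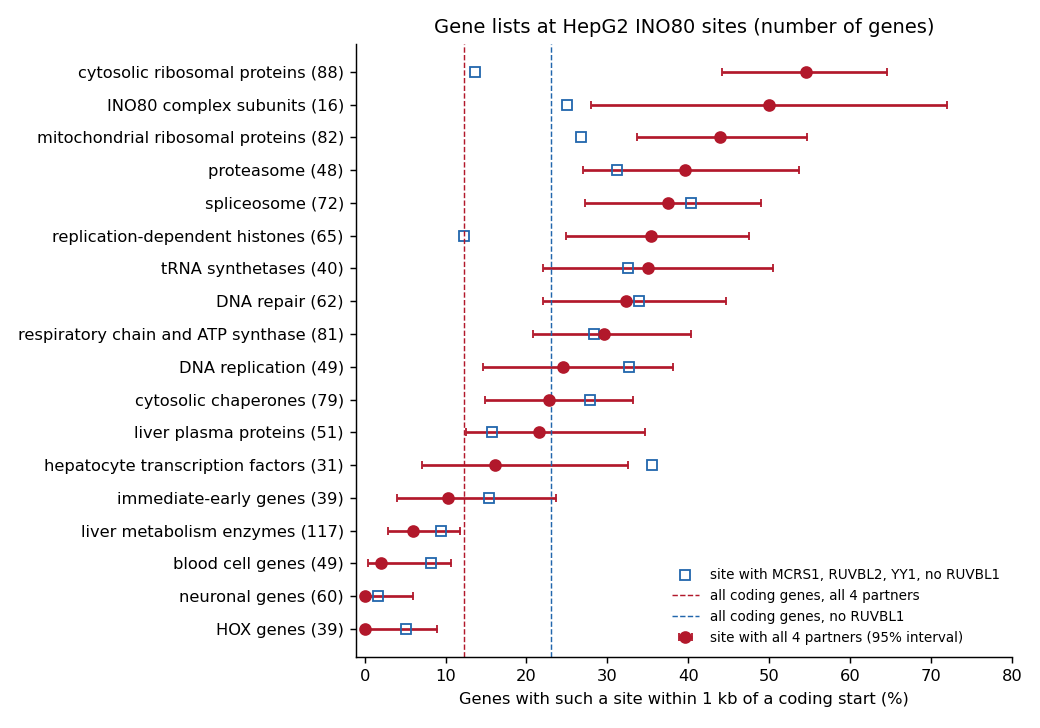
Red points give the share of each gene list (%) with a 4-partner site within 1 kb of a coding start, with 95% Wilson intervals, and open blue squares the share with a site that has MCRS1, RUVBL2 and YY1 but no RUVBL1; dashed lines are the same shares over all coding genes (12.3% and 23%), and list sizes are in brackets. Cytosolic ribosomal proteins (54.5%) lie farthest to the right, and the neuronal and HOX lists are at 0.

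Lists of liver genes had shares of 4-partner sites from 5.98% to 21.6%, on both sides of the 12.3% of all coding genes. Among genes with any INO80 peak the shares were 30.6% for plasma proteins, 17.9% for hepatocyte transcription factors and 16.3% for liver metabolism enzymes, against 19.3% of all bound coding genes. Plasma proteins thus lay within the range of the housekeeping lists once only bound genes were counted, since chaperones had 25.7% and the respiratory chain 30.8%. Of 51 plasma protein genes 11 (21.6%, 12.5 to 34.6) had one: AHSG, APOE, APOM, C3, F10, F2, F5, HP, ITIH3, ORM1 and ORM2. HP, which encodes the haemoglobin scavenger haptoglobin, had the narrowest of these INO80 peaks (295 bp) and a span of 157 bp. At AHSG, which encodes fetuin-A, the INO80 peak measured 2563 bp and the MCRS1 peak 5248 bp, with RUVBL1 centred 1 bp from the start. C3, a complement component, had an INO80 peak of 1893 bp and a RUVBL1 peak of 158 bp. ORM1 and ORM2 are near-identical neighbours, so reads may be divided between them. Of the 12 sites at these genes only those at F5, F2 and the start shared by APOM and BAG6 overlapped INO80 in Huh7. Among 31 hepatocyte transcription factors 5 (16.1%, 7.09 to 32.6) had a 4-partner site, namely FOXA1, NR1H3, NR2F2, ATF5 and CEBPG, and 11 (35.5%) a RUVBL1-lacking site. The interval of the former share holds the 12.3% of all coding genes. All 5 of these sites overlapped INO80 in Huh7. Liver metabolism enzymes had 7 of 117 (5.98%, 2.93 to 11.8), with an INO80 peak of any kind at 36.8%, and of the 7 SULT1A3 and SULT1A4 are near-identical copies.

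Immediate-early genes, induced within minutes of a stimulus, were nearly all bound by INO80 (38 of 39). A 4-partner site lay at 4 of them (10.3%, 4.06 to 23.6), namely DUSP1, FOSB, JUND and SRF, a share near the 12.3% of all coding genes. Of the bound genes it was 10.5%, against 19.3% of all bound coding genes. Genes of other cell types lay at the low end. Blood cell genes had 1 of 49 (2.04%), CD68, a lysosomal protein gene of macrophages. HOX genes had 0 of 39, with an interval up to 8.97%, and neuronal genes 0 of 60, up to 6.02%, though INO80 peaks of some kind lay at 19 and 22 of them. Peak files hold no expression, so the lines could not be checked against markers by expression.

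Genes of small RNAs lay at some of the members far from coding starts. Of the 10 members over 10 kb from any coding start with the widest RUVBL1 peaks, 4 had an annotated start of a small nuclear or small nucleolar RNA gene or copy within 1 kb. They were a site near KIAA2013 at RNU5E-1, a site near ARHGAP5 between RNU6-7 and RNU6-8, a site in TEX2 at SNORD104 and its host SNHG25, and a site near EAPP at the annotated copy RNU1-28P. Small nuclear RNAs are the RNA parts of the spliceosome. The RUVBL1 peaks at these 4 sites measured 2133, 2095, 1698 and 1655 bp. All 4 overlapped INO80, MCRS1, RUVBL2 and YY1 in Huh7. The other 6 lay in LRRC75A, near NCL, in HM13, in VAC14, near PTPN1 and in PHACTR2. Over all members, 22 (0.756%, 0.50 to 1.14) had a small nuclear RNA start within 1 kb, against 8 (0.148%) RUVBL1-lacking sites, a difference of 0.608 points (0.315 to 1.00). Away from coding starts it was 14 of 905 members (1.55%) and 3 RUVBL1-lacking sites (0.234%). Small nucleolar RNA starts were near 25 (0.859%) and 15 (0.277%), a difference of 0.582 points (0.253 to 1.00). Starts of long non-coding RNA genes were near 24.5% and 23.6%, with an interval that spans 0 (0.879, -1.03 to 2.82). INO80 peaks with no partner had small nuclear RNA starts at 0.285% and small nucleolar RNA starts at 0.265%. A wide peak reaches more starts, and member peaks were wider than RUVBL1-lacking ones (medians 1340 and 1023 bp). The small RNA shares were not read within classes of width. Small RNA genes have many near-identical copies, and reads cannot be placed at 1 of them with certainty.

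The Huh7 lists, which played no part in the choice, showed most 4-partner sites bound in the second line as well. Of the 2911 sites 2229 (76.6%, 75 to 78.1) overlapped an INO80 peak in Huh7, against 42.6% of all INO80 peaks under 3000 bp and 61.6% of RUVBL1-lacking sites. The difference from the latter was 14.9 points (12.9 to 16.9). MCRS1 was found in Huh7 at 54.2% against 25% (29.2, 27.1 to 31.4), and RUVBL2 at 34% against 17.5% (16.5, 14.5 to 18.5). YY1 differed least, at 80.4% against 78.1% (2.27, 0.430 to 4.06). RUVBL1 was not mapped in Huh7. All 4 factors of that line together were found at 813 members (27.9%) and at 9.67% of RUVBL1-lacking sites, a difference of 18.3 points (16.5 to 20.1). INO80 with MCRS1 and YY1 followed at 659 members, INO80 with YY1 at 488 and YY1 alone at 194. No list had a peak at 421 members (14.5%).

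Position and sharing went together. At coding starts 88.9% of the 4-partner sites overlapped INO80 in Huh7, and away from them 49.2%, a difference of 39.8 points (36.2 to 43.3). Sites with no Huh7 peak made up 4.39% at starts and 36.8% away. In both places the 4-partner sites exceeded the RUVBL1-lacking sites, by 19.7 points (17.7 to 21.6) at starts and 12.1 points (7.93 to 16.3) away. Members at a start with no Huh7 peak and the widest RUVBL1 peaks were those at FEZ1 with STT3A (1388 bp), SERPINF1 (1217 bp), SGK2 (1117 bp), FLJ14816 (1102 bp) and HYAL1 (1083 bp). SERPINF1 encodes a secreted protein that restrains blood vessel growth. The sites at HP, ITIH3, C3 and AHSG also had no Huh7 peak.

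Because a wide peak meets other peaks more often, the main shares were also read within classes of INO80 width. The excess of Huh7 INO80 over RUVBL1-lacking sites was 25.1 points (17.8 to 32.2) under 500 bp, 14.8 (10.5 to 18.9) from 500 bp, 5.77 (2.08 to 9.34) from 1000 bp and 3.88 (0.818 to 6.93) from 1500 bp. It held its direction and shrank with width. The share with all 4 factors in Huh7 exceeded that of RUVBL1-lacking sites by 11.1, 16.5, 13.3 and 20.9 points in the same classes. The YY1 letters did so by 3.72 (0.340 to 8.29), 7.92, 5.19 and 4.31 points. The promoter share differed by -17.3, -11.9 and -9.48 points in the 3 wider classes, while the interval under 500 bp spans 0 (-3.85, -11.2 to 3.56). YY1 peaks in Huh7 did not keep a direction, with 3.1 (-4.32 to 10.3), -3.72 (-7.69 to 0.0570), -4.26 (-7.49 to -1.16) and 1.78 points (-0.945 to 4.49), so the small excess of YY1 over all widths was not found within them.

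**Figure D5:**
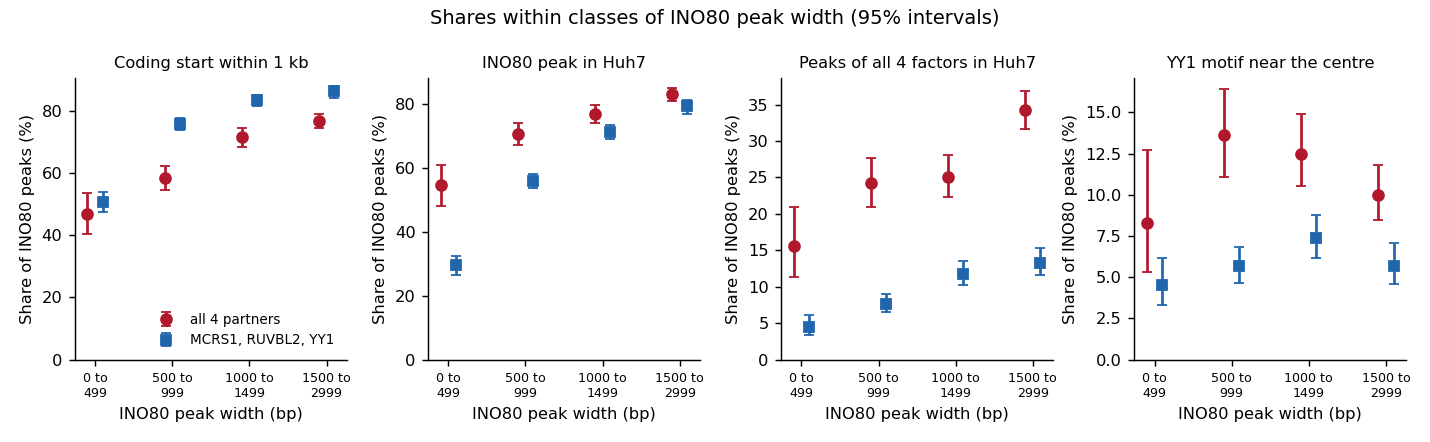
Points give shares of INO80 peaks (%) within 4 classes of INO80 peak width (bp) for 4-partner sites (red circles) and sites with MCRS1, RUVBL2 and YY1 but no RUVBL1 (blue squares), with 95% Wilson intervals. The Huh7 INO80 shares are 54.6% and 29.5% in the narrowest class and 83.2% and 79.4% in the widest, and the promoter share of the 4-partner sites lies below the other in the 3 wider classes.

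GC content was likewise held in classes among sites at coding starts. The excess of Huh7 INO80 was 23.4 points (18.2 to 28.7) below 60% GC, 15.4 (12.2 to 18.5) from 60% and 20.6 (16.7 to 23.9) from 70%. The YY1 letters gave 8.66 (4.78 to 12.2), 8.16 (5.43 to 11) and 2.29 points (-0.200 to 5.43), and starts on both strands 8.91 (4.08 to 13.4), 8.17 (4.90 to 11.5) and 2.25 points (-0.691 to 5.78). For these 2 features the interval spans 0 among the sites richest in GC.

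The share of INO80 peaks that were 4-partner sites differed between chromosomes. Chromosomes 2, 14, 16, 17 and 20 are described as gained in HepG2, and on them 1114 of 6865 INO80 peaks under 3000 bp were members (16.2%, 15.4 to 17.1), against 1792 of 15664 (11.4%, 11 to 11.9) on the other autosomes. Chromosome 6, outside that group, had the highest share (17.5%, 15.6 to 19.5), followed by chromosome 2 (17.2%). The X chromosome had 5 of 247 (2.02%, 0.868 to 4.65). Copy number was not measured here, and its part in the number of members was not tested. Without those 5 chromosomes and the sex chromosomes, 81.8% of the 1792 members overlapped INO80 in Huh7 and 72.6% lay at coding starts.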

How the data were processed

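The 9 peak lists, as the authors deposited them, give positions on hg19 only, already filtered. Tools listed in the submitters' processing notes are MACS2, Bowtie2, deepTools, bedtools and SAMtools, without versions. The sources used here do not say whether libraries were pooled before calling, how lists were filtered, or at what depth. From these positions, peaks were overlapped (at least 1 bp), the partner peak with the longest overlap gave the centre, and starts came from GENCODE 44 lifted to GRCh37, the sequence of hg19 (basic protein-coding transcripts, 19811 genes). Motifs were counted in 301 bp. Shares have 95% Wilson and differences 95% Newcombe intervals, with no p-value, and the scripts were tested on simulated data (Python 3.11.15, numpy 2.4.6, pysam 0.24.0, matplotlib 3.10.9). The members, gene lists and comparisons were chosen with earlier results of these data known. Motifs other than that of YY1, the GC classes, starts on both strands, small RNA starts and the comparison of chromosomes were added after the files were read. Named sites were the 10 with the smallest span at starts, the 10 with the widest RUVBL1 peak overall and over 10 kb from starts, the 5 on either side of the width limit, the 5 at starts without a Huh7 peak, all members at subunit, liver and other cell type lists, and up to 4 with the smallest span of each further list. The sites shown with the YY1 motif, and some named for their Huh7 peaks, were chosen after their values were seen. Settings tried were other width limits, stricter overlaps, peaks set to 200 bp, the wider 50% of each list, fewer chromosomes, other start distances, and other motif windows and letters. A table of fly tag counts, the input libraries and the H3K27ac samples were not used here.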

Additional observations from a re-analysis of the deposited data

How the results depend on the processing

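The differences from RUVBL1-lacking sites in promoter share, Huh7 INO80, all 4 Huh7 lists and YY1 motif kept their direction, with intervals clear of 0, in all 37 values under other settings. Under each setting the compared sites lacked RUVBL1 by the rule of that setting. With stricter overlaps, peaks set to 200 bp or the wider 50% of each list, they can thus include sites that overlap a RUVBL1 peak. The levels moved more. The number of sites was 840 with every partner centre within 250 bp of the INO80 centre, 551 with peaks set to 200 bp, 1176 over the wider 50% of each list, and 1792 without chromosomes 2, 14, 16, 17, 20, X and Y. The promoter share was 71.2% without a width limit, 66.4% under 2000 bp, 72.1% over the wider 50%, 72.6% on fewer chromosomes, 73.8% within 5 kb, and 79.6% with starts of all annotated genes. The Huh7 INO80 share was 78.3% without a width limit, 74.3% under 2000 bp, 79.9% with centres within 250 bp, 65.5% with peaks set to 200 bp, 68.3% over the wider 50%, and 81.8% on fewer chromosomes. The share with all 4 Huh7 lists was 31.3%, 25.5%, 29.9%, 14.3%, 23.3% and 31.4% under the same settings, and 30.4% where a base was covered by all 5 peaks. The YY1 motif share was 16.5% with centres within 250 bp, 18.3% with peaks set to 200 bp, 12.7% on fewer chromosomes, 3.4% in the shorter window, and 20.7% with the letters CCATNTT. Their causes were not tested. No paired analysis was possible because each factor has 1 peak list, so libraries could not be compared or left out in turn. Depth is unknown, and a missing peak does not show a missing protein.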
